A study of Homo sapiens with 9 samples.

Results

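The genes described here encode the subunits of the mitochondrial respiratory chain and of ATP synthase that are made from nuclear genes. They were chosen by symbol: the NDUFA, NDUFB, NDUFC, NDUFS and NDUFV series with NDUFAB1, the UQCR series with CYC1, the series from COX4 to COX8, and the ATP5 series. The rule found 81 of the 27407 rows of the expression table, with 37 in complex I, 10 in complex III, 16 in complex IV and 18 in complex V. ATP5IF1 (an inhibitor), ATP5MF-PTCD1 (a readthrough) and UQCRBP1 (a pseudogene), 3 rows in all, also carry such symbols and were set aside. NDUFA4 is counted in complex IV, where its protein is found, although it is named for complex I. The label fitted the symbols, as every member is named for a subunit of these complexes or for a copy of one.

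RNA was sequenced from Weri-RB1/CRP, a human retinoblastoma line that the labels give as resistant to carboplatin. All 3 groups share this line and its resistance, and each has 3 libraries. The control group carried the hairpin shNC, and the others carried shSNHG1#1 or shSNHG1#2, hairpins designed to knock down the long noncoding RNA SNHG1. SNHG1 itself is not analysed here, so the strength of the knockdown is not given, and no source says whether the lines are clones or whether libraries came from separate cultures. The p-values below therefore measure the spread between these libraries, which may be technical.

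The respiratory chain passes electrons from NADH and succinate through complexes I to IV to oxygen, and complexes I, III and IV pump protons across the inner mitochondrial membrane as they do so. ATP synthase, also called complex V, lets the protons flow back and makes ATP. Most subunits are nuclear-encoded and imported, and they are assembled with a few subunits made inside the mitochondrion. Those mitochondrially encoded subunits are not analysed here.

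Library totals lay between 21502093 and 21606498 estimated counts. In all, 18767 features passed the filter on low counts, 77 members among them. COX4I2, COX7A1, COX8C and ATP5MGL did not pass and were at 0 or near it in every library. A single feature without a gene symbol held 6.57% to 7.09% of the counts in shNC, 12.21% to 13.54% with shSNHG1#1 and 11.77% to 12.12% with shSNHG1#2, which bears on the scaling of every gene. Of 9 retinal and retinoblastoma markers in the table, 7, CRX and RCVRN among them, were under 1 FPKM in every library, while GNAT2, the cone transducin, was at 16.0 to 19.6 FPKM and THRB, a thyroid hormone receptor, at 1.63 to 2.43. All 6 epithelial markers (KRT8, KRT18, KRT19, EPCAM, CDH1 and CLDN4) were at or above 1 FPKM, with a summed level of 1637 to 1638 FPKM in shNC, 1518 to 1610 with shSNHG1#1 and 1523 to 1614 with shSNHG1#2. Most of that sum came from KRT8 (745 to 790 FPKM) and KRT18 (684 to 764). EPCAM (log2 fold changes of 0.98 and 0.89 with shSNHG1#1 and shSNHG1#2) and CLDN4 (0.99 and 0.93) were called higher with both hairpins, and KRT19 (-0.73 and -0.53) and CDH1 (-0.35 and -0.23) lower, although the CDH1 call with shSNHG1#2 was lost by totals without the most abundant feature. The part of these genes in the results below was not tested. In bulk RNA, fewer cells of a type and less RNA per cell cannot be told apart.

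In shNC the members ranged from 0 to 317 FPKM (fragments per kilobase of each transcript, set relative to a library's depth), with a median of 38.8. ATP5MC2, which encodes the proton-carrying c subunit of ATP synthase, was the highest at 317 ± 11.1 FPKM (SD, n = 3). COX6A1 at 244 ± 14.2, COX6B1 at 219 ± 4.16 and COX7C at 209 ± 9.32 FPKM, small subunits of cytochrome c oxidase, came next, and COX6B1 and COX7C lay within their spread of each other. Complex IV had the highest median level, 84.7 FPKM over its 16 members, and complex I the lowest, 31.9 over 37. The medians of complexes III and V were 51.5 and 50.7 FPKM.

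**Figure D1:**
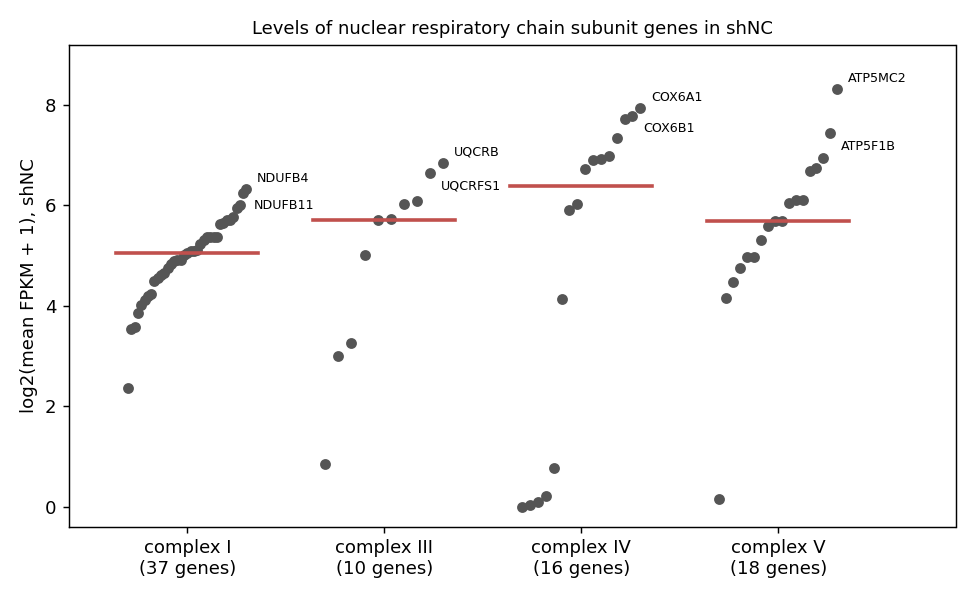
Mean level of each of the 81 subunit genes in shNC, as log2(FPKM + 1) on the vertical axis, by complex on the horizontal axis. Each point is 1 gene (mean of 3 libraries), red lines are medians, and the 2 highest genes of each complex are named. ATP5MC2 stands highest at 317 FPKM, and most complex IV genes lie above the complex I median of 31.9 FPKM.

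Where a cytochrome oxidase subunit has a ubiquitous and a tissue-restricted form, the ubiquitous form made up nearly all of the signal. COX4I1 was at 119 ± 4.91 FPKM in shNC and COX4I2, the lung form, at 0.0267 ± 0.0462. COX8A was at 161 ± 4.58 FPKM and COX8C at 0.06 ± 0.052. COX7A2 was at 16.5 ± 4.87 FPKM, and COX7A1, the heart and muscle form, was listed at 0 in each shNC library. NDUFA4 was listed at only 0.06 to 0.34 FPKM in shNC, and the transcript length implied by its counts and FPKM ran from 3702 to 18814 bases over the libraries, so its value is uncertain. NDUFC2 was at 4.16 ± 0.251 FPKM in shNC while the readthrough gene NDUFC2-KCTD14, which contains its sequence, was at 22.6 ± 1.25, so reads may be split between them.

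Summed over the 81 members, the level was 4538 ± 75.7 FPKM in shNC, 5098 ± 144 with shSNHG1#1 and 4853 ± 200 with shSNHG1#2 (SD, n = 3). The 3 libraries of each hairpin, from 4732 to 5221 FPKM, were all above the shNC libraries, from 4479 to 4623. Complex I summed to 1267 ± 9.21, 1471 ± 42.4 and 1417 ± 63.5 FPKM in the same order. Complex III summed to 494 ± 7.95, 583 ± 12.5 and 550 ± 27.7 FPKM, and complex V to 1332 ± 27.7, 1512 ± 28.5 and 1433 ± 48.5. For these 3 complexes the hairpin libraries did not overlap the shNC libraries. Complex IV summed to 1444 ± 31.8, 1532 ± 64.6 and 1452 ± 67.2 FPKM, and its libraries overlapped.

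With shSNHG1#1, 33 of the 77 members tested were higher than in shNC and 4 were lower, by edgeR's quasi-likelihood test on all 9 libraries at an adjusted p of 0.05. The members called in either direction made up 48.1%, the same share as over all features tested (48.1%). By direction, 24.5% of all features were called higher and 23.5% lower, beside 42.9% and 5.19% of the members, and the difference between these shares was not tested. The median log2 fold change was 0.167 over the members and 0.023 over all features. Of the 33 higher calls, 23 held in every alternative analysis and with each library left out. Of the 4 lower calls, 1 did (ATP5MC2).

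With shSNHG1#2, 23 members were higher and 7 were lower, and those called in either direction made up 39%. Over all features, 46.2% were called, with 23.3% higher and 22.8% lower, beside 29.9% higher and 9.09% lower among the members. Their median log2 fold change was 0.079, beside 0.011 over all features. Without shSNHG1#2 replicate 1 that median was 0.044 (0.008 over all features) and the count of higher members dropped to 15. In every alternative, 13 of the 23 higher calls held, and 3 of the 7 lower ones (ATP5MC2, NDUFA9 and NDUFB4). The comparisons with shNC share their control libraries, so a like value with both hairpins is not independent.

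The scaling set how many members passed. When libraries were scaled by their totals without the most abundant feature, the median of all features moved to 0.165 with shSNHG1#1 and 0.157 with shSNHG1#2. The members then stood at 0.309 and 0.225, with 55 higher and 1 lower, and 43 higher and 3 lower. Among all features called, the share called higher went from 51% to 70.7% with shSNHG1#1 and from 50.5% to 72.6% with shSNHG1#2. By library totals alone it was 60.9% with shSNHG1#2, and 28 members were higher and 4 lower. The distance of the members' median above that of all features was 0.143 and 0.144 with shSNHG1#1, and 0.068 under both scalings with shSNHG1#2. A change of scaling shifts all features by nearly the same amount, so it could hardly move this distance. Over the other alternatives the distance ran from 0.120 (without shNC replicate 2) to 0.158 (limma on log2(FPKM + 1)) with shSNHG1#1. With shSNHG1#2 it ran from 0.036 (without shSNHG1#2 replicate 1) to 0.109 (limma on log2(FPKM + 1)).

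**Figure D2:**
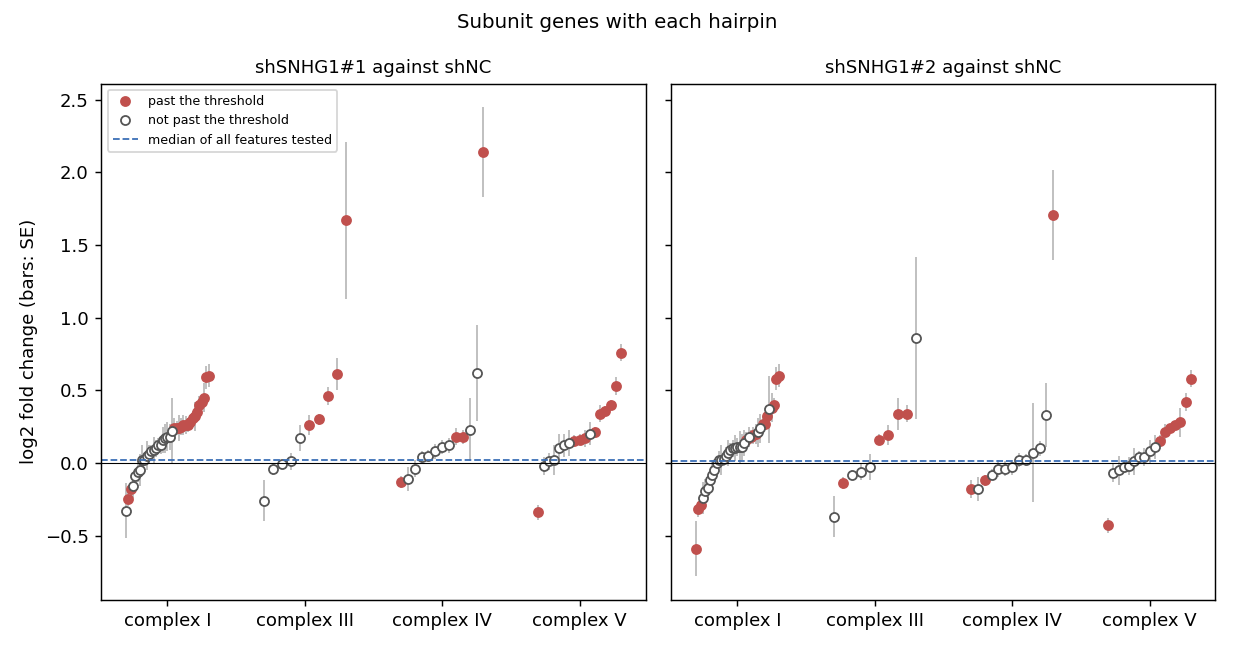
Log2 fold change against shNC (vertical axis, bars: SE) of the 77 subunit genes tested, by complex, for each hairpin. Filled red points passed the adjusted p of 0.05, open points did not, and the dashed line is the median of all features tested. With shSNHG1#1 the filled points are mostly above 0 (33 higher, 4 lower), and complex IV has the fewest.

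The upstream sequences of 3 members are shown because these genes were among those that rose or fell most: ATP5MC1 (log2 fold changes of 0.76 and 0.58 with shSNHG1#1 and shSNHG1#2), NDUFS8 (0.60 with both) and NDUFB4 (-0.25 and -0.32). They are RefSeq promoter windows of build GRCh38.p14, plus strand, 5′ to 3′, at chr17:48892537-48892764, chr11:68030431-68030616 and chr3:120596086-120596308. Each starts 250 bases before the RefSeq start and ends before the gene's first annotated exon, in the gene's upstream flank. Capitals mark exact matches, on either strand, of TGCGCA (the core bound by the regulator NRF1), CCGGAA (bound by ETS factors), AAGATGG (YY1), CCAAT (bound by NF-Y) and ACGTG (the hypoxia response core).
ATP5MC1: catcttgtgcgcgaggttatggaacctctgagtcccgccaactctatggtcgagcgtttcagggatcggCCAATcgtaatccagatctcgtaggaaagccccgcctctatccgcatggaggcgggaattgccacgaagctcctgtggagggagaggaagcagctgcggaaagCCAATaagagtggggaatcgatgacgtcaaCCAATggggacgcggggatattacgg
NDUFS8: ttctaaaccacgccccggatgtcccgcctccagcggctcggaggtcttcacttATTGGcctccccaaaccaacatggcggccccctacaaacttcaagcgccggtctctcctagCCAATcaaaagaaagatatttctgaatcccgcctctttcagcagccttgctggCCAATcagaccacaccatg
NDUFB4: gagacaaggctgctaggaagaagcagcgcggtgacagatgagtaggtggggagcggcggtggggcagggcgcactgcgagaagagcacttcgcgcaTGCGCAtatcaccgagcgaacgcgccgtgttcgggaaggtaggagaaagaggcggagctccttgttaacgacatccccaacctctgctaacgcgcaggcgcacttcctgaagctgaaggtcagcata
ATP5MC1 and NDUFS8 each held 4 CCAAT matches in the 250 bases, 3 of them in the stretch printed, and NDUFB4 held 1 TGCGCA match. At least 4 CCAAT matches occurred in 3 of the 65 members with a window (ATP5F1E is the other) and in 0.93% of all 27305 windows. That cut equals the count in ATP5MC1 and NDUFS8, which were picked for their change, so no enrichment can be read from it. At least 1 CCAAT match was in 32.3% of the members' windows, in 33% of all windows and in 34.3% of those of the features tested.

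TGCGCA occurred in 21.5% of the members' windows, against 7.05% of all windows and 10.4% of those of the features tested. CCGGAA occurred in 36.9%, against 14.8% and 22.5%. AAGATGG occurred in 6.15%, against 3.77% and 3.42%, and ACGTG in 23.1%, against 18.7% and 22.2%. No motif of the 5 contains another, and a match is a description of sequence, not a bound site. Among the members with a window, TGCGCA was in 3 of the 26 called higher with shSNHG1#1 and in 10 of the 38 tested but not called higher. CCGGAA was in 10 of 26 and 14 of 38.

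In complex I, which takes electrons from NADH, 16 of 37 members were higher and 2 lower with shSNHG1#1, with a median log2 fold change of 0.176. The shares were 43.2% higher and 5.41% lower, beside 24.5% and 23.5% over all features. With shSNHG1#2, 11 were higher and 3 lower, with a median of 0.107, which was 0.071 without shSNHG1#2 replicate 1. The shares were then 29.7% and 8.11%, beside 23.3% and 22.8% over all features. The core subunits that carry the flavin and the iron-sulfur clusters, a list of 7 genes made after values were seen, held 5 and 4 of the higher calls, with medians of 0.306 and 0.271. The 30 accessory subunits held 11 and 7, with medians of 0.140 and 0.096. The shares called higher were 71.4% and 57.1% of the core subunits and 36.7% and 23.3% of the accessory ones.

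NDUFS8, an iron-sulfur protein on the path to ubiquinone, was at 51.0, 48.2 and 54.0 FPKM in shNC, 82.1, 81.4 and 76.8 with shSNHG1#1 and 90.5, 76.6 and 75.2 with shSNHG1#2. Every hairpin library was above every shNC library. The fold was 1.52 with shSNHG1#1 (log2 0.60, SE 0.08, edgeR adjusted p = 6.5e-05) and 1.51 with shSNHG1#2 (log2 0.60, SE 0.08, edgeR adjusted p = 8.1e-05). NDUFV2, an iron-sulfur protein of the NADH-oxidizing module, was at 63.1, 58.4 and 59.5 FPKM in shNC, 80.9, 84.6 and 83.3 with shSNHG1#1 and 83.7, 85.0 and 81.3 with shSNHG1#2. Its groups did not overlap the control either, and the log2 fold changes were 0.42 and 0.40 (SE 0.05 for both, edgeR adjusted p = 4e-05 and 7.3e-05). NDUFV1, which binds NADH and the flavin, rose by 0.31 and 0.27, and NDUFS1, the largest iron-sulfur subunit, by 0.35 and 0.27, on the log2 scale. NDUFS3, a scaffold of the same arm, passed with shSNHG1#1 alone (0.26), a call lost without shNC replicate 3 or shSNHG1#1 replicate 1 (edgeR adjusted p of 0.0518 and 0.0587). NDUFS7, an iron-sulfur protein next to the ubiquinone site, had log2 fold changes of 0.18 with shSNHG1#1 and 0.11 with shSNHG1#2 and did not pass with either.

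Among the accessory subunits, NDUFS6, a zinc-binding protein joined late in assembly, rose most. It was at 32.3, 33.7 and 29.7 FPKM in shNC, 50.8, 46.5 and 50.6 with shSNHG1#1 and 54.5, 48.3 and 46.4 with shSNHG1#2. No hairpin library overlapped the control, and the log2 fold changes were 0.59 and 0.58 (SE 0.08, edgeR adjusted p = 0.00012 and 0.00015). NDUFB10, a membrane-arm subunit, rose by 0.40 and 0.32. NDUFB1, a small membrane-arm subunit, rose by 0.45 and 0.38, the latter call lost without shNC replicate 1 or shSNHG1#2 replicate 1 (edgeR adjusted p of 0.0575 and 0.053). The other accessory subunits called higher with shSNHG1#1 were NDUFA2, NDUFA3, NDUFA12, NDUFB3, NDUFB9, NDUFS5 and NDUFV3, at 0.24 to 0.32, and of these NDUFA12, NDUFB9, NDUFS5 and NDUFV3 also passed with shSNHG1#2, at 0.16 to 0.20. The calls of NDUFA3, NDUFB3 and NDUFB9 with shSNHG1#1 and of all 4 with shSNHG1#2 were lost without some of the libraries (edgeR adjusted p from 0.0503 to 0.196 and from 0.0536 to 0.156), and each of the 3 shNC libraries and of the 3 libraries of the hairpin ended at least 1 of them. NDUFAB1, the acyl carrier protein that is also a complex I subunit, rose with shSNHG1#1 (0.28, edgeR adjusted p = 0.00123) and stood at 0.09 with shSNHG1#2 (edgeR adjusted p = 0.184), while the direct comparison of the hairpins did not pass for it (edgeR adjusted p = 0.103).

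NDUFB4, NDUFA9 and NDUFB8 went the other way. NDUFB4, a membrane-arm subunit and the most abundant of complex I in shNC, was at 77.1, 80.3 and 80.3 FPKM there, 72.5, 72.4 and 71.3 with shSNHG1#1 and 75.0, 68.8 and 64.7 with shSNHG1#2. All hairpin libraries were below the control, with log2 fold changes of -0.25 and -0.32 (SE 0.05, edgeR adjusted p = 0.00146 and 0.00031). NDUFA9, which sits near the ubiquinone site, was at 21.4 ± 0.555, 19.6 ± 0.266 and 18.3 ± 0.848 FPKM in the 3 groups, with log2 fold changes of -0.18 and -0.29. With totals that leave out the most abundant feature, the shSNHG1#1 calls of NDUFB4 and NDUFA9 were lost (edgeR adjusted p = 0.079 and 0.493). NDUFB8, whose protein is often used to mark assembled complex I, was at 40.4, 39.8 and 41.0 FPKM in shNC, 34.2, 31.9 and 41.6 with shSNHG1#1 and 38.5, 16.0 and 31.2 with shSNHG1#2. The shSNHG1#2 libraries were all below the control and far apart among themselves, and the log2 fold change of -0.59 (SE 0.19, edgeR adjusted p = 0.0287) no longer passed without shNC replicate 1, 2 or 3 (edgeR adjusted p of 0.061, 0.0638 and 0.0634).

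**Figure D3:**
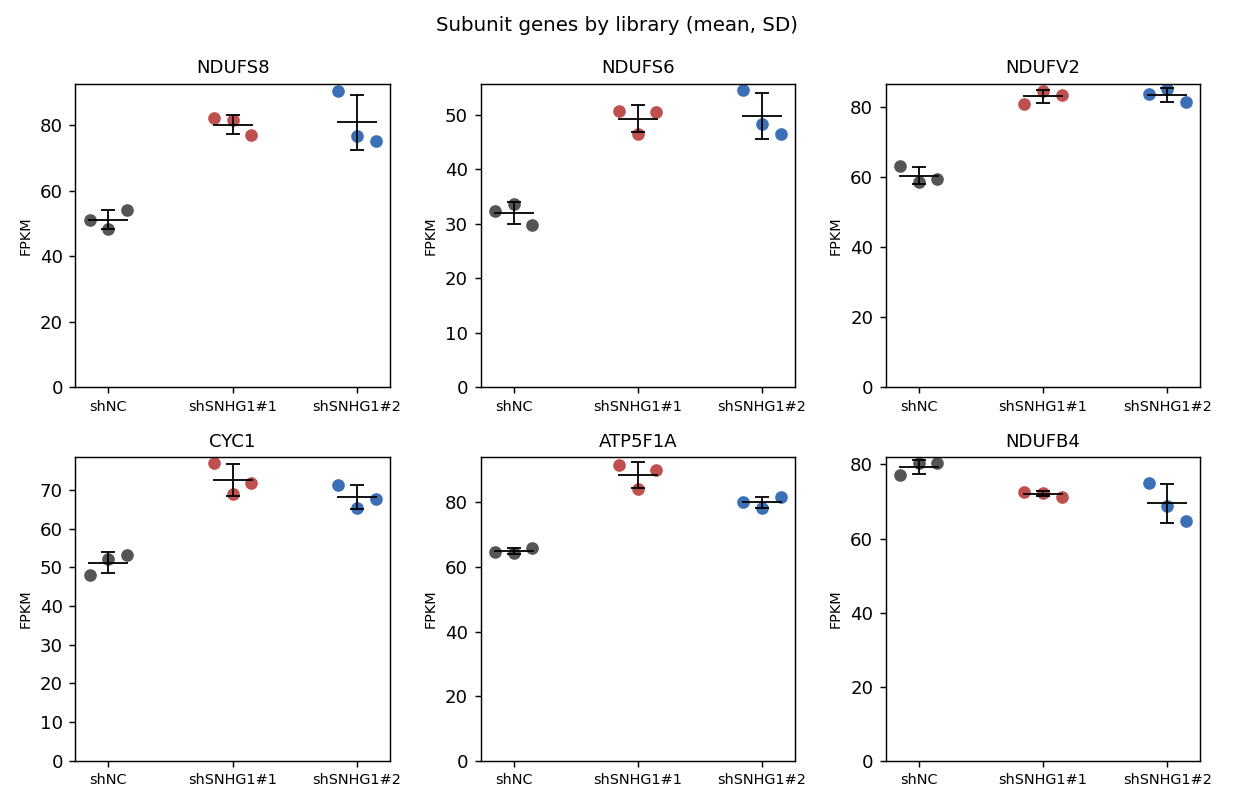
FPKM in each library (points) with the group mean and SD (black) for 6 subunit genes, in shNC, shSNHG1#1 and shSNHG1#2, with each vertical axis starting at 0. NDUFS8, NDUFS6, NDUFV2, CYC1 and ATP5F1A are higher in every hairpin library than in any shNC library, and NDUFB4 is lower.

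Complex III passes electrons from ubiquinol to cytochrome c. With shSNHG1#1, 5 of its 10 members (50%) were higher and 0 lower, beside 24.5% and 23.5% over all features. The median log2 fold change was 0.212. With shSNHG1#2, 4 (40%) were higher and 1 (10%) lower, beside 23.3% and 22.8% over all features. The median was then 0.066, and 0.007 without shSNHG1#2 replicate 1. CYC1, the heme protein cytochrome c1, was at 48.1, 52.2 and 53.2 FPKM in shNC, 77.0, 68.9 and 71.7 with shSNHG1#1 and 71.4, 65.3 and 67.7 with shSNHG1#2. Its hairpin libraries all lay above the control, with log2 fold changes of 0.46 and 0.34 (SE 0.06, edgeR adjusted p = 6.4e-05 and 0.00061). UQCRFS1, the Rieske iron-sulfur protein, was at 99.1 ± 1.82, 126 ± 8.3 and 117 ± 3.06 FPKM, with log2 fold changes of 0.30 and 0.16 (edgeR adjusted p = 0.00013 and 0.00911). The catalytic heme and iron-sulfur subunits made in the nucleus thus passed with both hairpins.

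UQCR11, a small subunit, was at 7.2, 6.82 and 7.0 FPKM in shNC, 11.2, 11.4 and 10.6 with shSNHG1#1 and 10.7, 9.06 and 7.98 with shSNHG1#2. Both hairpin groups were above the control. The log2 fold change was 0.61 with shSNHG1#1 (SE 0.11, edgeR adjusted p = 0.00071) and 0.34 with shSNHG1#2 (SE 0.11, edgeR adjusted p = 0.0256), the latter lost without any 1 of the 3 shNC libraries or shSNHG1#2 replicate 1 (edgeR adjusted p from 0.0548 to 0.0955). UQCRH, the hinge protein that binds cytochrome c1, passed at 0.26 and 0.19. Its call was lost with shSNHG1#1 without shNC replicate 3 (edgeR adjusted p = 0.0527), and with shSNHG1#2 without any of 4 libraries, shNC replicates 2 and 3 and shSNHG1#2 replicates 1 and 3 (0.074 to 0.2). UQCRHL, a near copy of UQCRH that can share its reads, was listed at 0.25, 1.12 and 1.01 FPKM in shNC and at 3.03, 1.22 and 4.43 with shSNHG1#1. That call (log2 1.67, SE 0.54, edgeR adjusted p = 0.0257) rested on few reads and was lost without shNC replicate 1 or shSNHG1#1 replicate 1 or 3 (0.0626 to 0.119).

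UQCRQ, a ubiquinone-binding subunit, gave opposite answers by count and by FPKM. Its log2 fold change from counts was -0.04 with shSNHG1#1 and -0.14 with shSNHG1#2 (SE 0.04, edgeR adjusted p = 0.0244), whereas its FPKM was 51.8 ± 3.42 in shNC, 67.5 ± 0.501 with shSNHG1#1 and 63.7 ± 3.1 with shSNHG1#2. Dividing its counts by its FPKM gave a transcript length between 866 and 963 bases for shNC, 683 to 719 with shSNHG1#1 and 700 to 715 with shSNHG1#2. The shSNHG1#2 call was also lost without shNC replicate 2 or shSNHG1#2 replicate 2 or 3 (edgeR adjusted p from 0.0629 to 0.105), so no direction is given for it. UQCRC1 and UQCRC2, the core proteins, and UQCRB, the most abundant member of the complex in shNC at 114 ± 6 FPKM, did not pass with either hairpin. UQCR10, a small subunit, stood at -0.26 and -0.37 on the log2 scale (edgeR adjusted p = 0.161 and 0.0503). DESeq2 called 3 members of the complex lower with shSNHG1#2, against 1 by edgeR.

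Complex IV, cytochrome c oxidase, hands the electrons to oxygen. Here 3 of the 13 members tested (23.1%) were higher and 1 (7.69%) lower with shSNHG1#1, beside 24.5% and 23.5% over all features. Their median was 0.107, and 0.055 without shSNHG1#1 replicate 1. With shSNHG1#2, 1 (7.69%) was higher and 2 (15.4%) lower, beside 23.3% and 22.8% over all features. The median was then -0.029, or -0.065 without shNC replicate 3. That median was 0.117 with totals that leave out the most abundant feature, 0.036 by totals alone and 0.027 by limma on log2(FPKM + 1), so its sign depends on the scaling. Whether complex IV differs from the other complexes was not tested. COX4I1, a regulatory subunit, was at 117, 116 and 125 FPKM in shNC, 146, 138 and 137 with shSNHG1#1 and 135, 127 and 120 with shSNHG1#2. Only the shSNHG1#1 libraries were clear of the control, and the log2 fold change was 0.18 (SE 0.05, edgeR adjusted p = 0.0083), against 0.02 with shSNHG1#2 (edgeR adjusted p = 0.739). COX6C, a small membrane subunit, was at 0.18 with shSNHG1#1, a call lost without shNC replicates 1 or 3 or shSNHG1#1 replicates 1 or 3 (edgeR adjusted p from 0.0731 to 0.144), and at -0.04 with shSNHG1#2.

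COX6B2, the testis form of the subunit that joins the monomers of the oxidase dimer, had the largest fold change of the complex from a very low level. It was at 0.73, 0.91 and 0.46 FPKM in shNC, 2.73, 1.55 and 3.28 with shSNHG1#1 and 2.09, 2.83 and 1.28 with shSNHG1#2, and its hairpin libraries were all above the control. The folds were 4.41 (log2 2.14, SE 0.31, edgeR adjusted p = 0.00018) and 3.27 (log2 1.71, SE 0.31, edgeR adjusted p = 0.001). COX6B1, the ubiquitous form, was at 219 ± 4.16, 246 ± 16.9 and 224 ± 6.96 FPKM and did not pass with either hairpin (log2 0.12 and -0.04). COX7C passed as lower with both (-0.13 and -0.12) and COX6A1 with shSNHG1#2 (-0.18, edgeR adjusted p = 0.0223). The COX7C values were 0.01 and 0.02 with totals that leave out the most abundant feature. The COX7C call with shSNHG1#1 was lost without shNC replicate 1 or 3 or shSNHG1#1 replicate 2 (edgeR adjusted p from 0.0553 to 0.0608), and that with shSNHG1#2 without the same shNC replicates or shSNHG1#2 replicate 2 or 3 (0.0803 to 0.121). The COX6A1 call was lost without shNC replicate 1 or 2 or shSNHG1#2 replicate 2 or 3 (0.0548 to 0.0839). COX5A, COX5B, COX7A2, COX7A2L, COX7B, COX8A and NDUFA4 did not pass with either hairpin.

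In complex V, 9 of the 17 members tested were higher and 1 lower with shSNHG1#1 (median 0.159), and 7 were higher and 1 lower with shSNHG1#2 (median 0.079, and 0.034 without shSNHG1#2 replicate 1). The shares were 52.9% higher and 5.88% lower with shSNHG1#1, beside 24.5% and 23.5% over all features. With shSNHG1#2 they were 41.2% and 5.88%, beside 23.3% and 22.8%. The catalytic head held some of the higher calls. ATP5F1A, the alpha subunit, was at 64.5, 64.3 and 65.9 FPKM in shNC, 91.5, 84.0 and 90.0 with shSNHG1#1 and 80.1, 78.2 and 81.5 with shSNHG1#2. The 3 groups did not overlap, with log2 fold changes of 0.40 and 0.24 against shNC (SE 0.03, edgeR adjusted p = 2.8e-06 and 0.00019). ATP5F1B, the beta subunit that holds the catalytic sites, was at 172 ± 4.81, 228 ± 5.85 and 216 ± 6.22 FPKM, with log2 fold changes of 0.36 and 0.26 (edgeR adjusted p = 6.4e-06 and 8.3e-05). ATP5F1C and ATP5F1D, the gamma and delta subunits of the rotating stalk, did not pass, with log2 values between -0.07 and 0.12.

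The c subunit, which forms the rotating ring in the membrane, is encoded by ATP5MC1, ATP5MC2 and ATP5MC3, whose precursors differ in the import sequence and give the same mature protein. ATP5MC1 was at 63.3, 69.7 and 70.4 FPKM in shNC, 123, 113 and 119 with shSNHG1#1 and 113, 98.0 and 106 with shSNHG1#2. ATP5MC3 was at 37.1, 39.8 and 39.4 FPKM, then 56.8, 52.2 and 58.1, then 55.7, 44.8 and 51.9 in the same order. ATP5MC2 was at 320, 327 and 305 FPKM in shNC, 274, 250 and 245 with shSNHG1#1 and 254, 236 and 248 with shSNHG1#2. The first pair lay above the control in every hairpin library and ATP5MC2 lay below it in every one.

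ATP5MC1 rose by 0.76 and 0.58 (SE 0.06, edgeR adjusted p = 2.6e-06 and 2.5e-05) and ATP5MC3 by 0.53 and 0.42 (SE 0.06, edgeR adjusted p = 3.6e-05 and 0.00022) on the log2 scale. ATP5MC2 had log2 fold changes of -0.34 and -0.43 (SE 0.05, edgeR adjusted p = 0.00016 and 3.4e-05). All of these calls held in every alternative analysis and with each library left out. The share of ATP5MC2 in the summed FPKM of the 3 genes was 74.9% ± 1.28 in shNC, 59.6% ± 1.27 with shSNHG1#1 and 61.1% ± 1.14 with shSNHG1#2 (SD, n = 3). The share of ATP5MC1 was 16% ± 0.948, 27.5% ± 0.565 and 26.3% ± 0.491. The sum was 424 ± 11.2, 430 ± 20.5 and 402 ± 22.3 FPKM, so the groups' sums lay within about the spread of their libraries while the genes behind them moved in opposite directions.

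**Figure D4:**
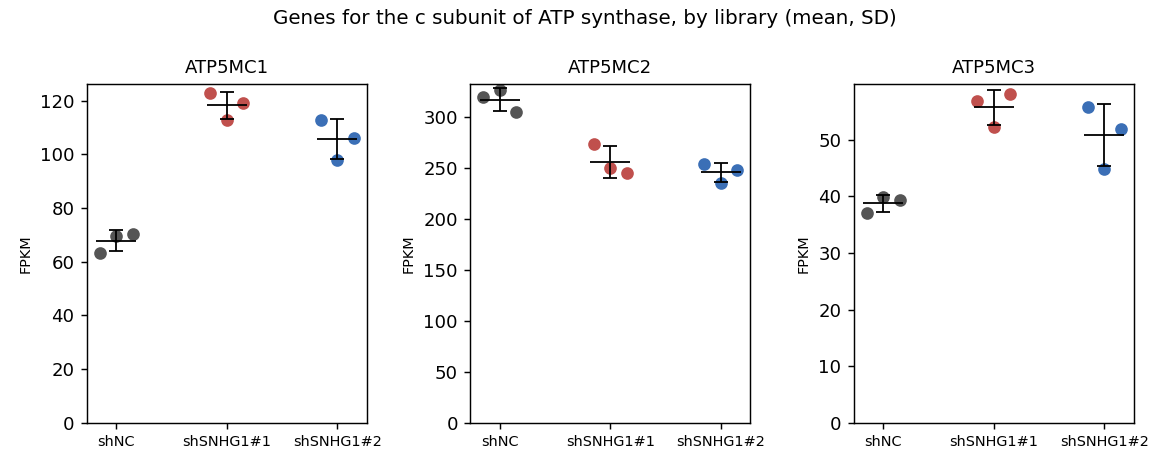
FPKM in each library (points) with the group mean and SD (black) for the 3 genes of the ATP synthase c subunit, in shNC, shSNHG1#1 and shSNHG1#2, with each vertical axis starting at 0. ATP5MC1 and ATP5MC3 are higher in all 6 hairpin libraries than in shNC, and ATP5MC2 is lower.

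Among the other parts of ATP synthase, ATP5MG, a small membrane subunit, rose by 0.34 with shSNHG1#1 and 0.21 with shSNHG1#2, the latter call lost without shNC replicate 2 (edgeR adjusted p = 0.0601). ATP5PD, of the stalk that holds the head still, stood at 0.15 with both, and both calls were lost without shNC replicate 2 or 3 (edgeR adjusted p from 0.059 to 0.0686). ATP5PB of the same stalk and ATP5MPL passed with shSNHG1#1 only (0.16 and 0.17). ATP5PB was lost without shNC replicate 1 or shSNHG1#1 replicate 2 or 3 (0.0556 to 0.0609), and ATP5MPL without any 1 of the shNC libraries or shSNHG1#1 replicate 1 or 3 (0.0585 to 0.147). ATP5MD, which helps ATP synthase form dimers, passed with shSNHG1#2 (0.28, edgeR adjusted p = 0.046), a call lost without shNC replicate 2 or 3 or shSNHG1#2 replicate 1 or 2 (0.0673 to 0.196). ATP5PO, ATP5PF, ATP5ME and ATP5MF did not pass with either hairpin.

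Few members differed between the hairpins. By edgeR's quasi-likelihood test 0 of 77 were higher with shSNHG1#2 than with shSNHG1#1, 0 also at an unadjusted p under 0.05, by DESeq2 and by limma on FPKM, and 2 were lower, 20 at an unadjusted p under 0.05. Of all 18767 features, 1556 were higher and 1395 lower at that unadjusted p. Over all features 3.12% were called, with 2.00% higher and 1.12% lower, against 2.6% of the members, all lower. Of the 77, 69 had a log2 fold change below 0, beside 9489 of the 18767 features. The median of the 77 was -0.089, beside -0.002 over all features, and these differences were not tested. ATP5F1A differed by -0.17 (SE 0.03, edgeR adjusted p = 0.0222). ATP5F1E, the epsilon subunit, was at 107, 98.1 and 100 FPKM in shNC, 121, 117 and 127 with shSNHG1#1 and 106, 103 and 104 with shSNHG1#2, so that only shSNHG1#1 stood apart. It differed between the hairpins by -0.24 (SE 0.04, edgeR adjusted p = 0.0161), with 0.21 against shNC for shSNHG1#1 and -0.03 for shSNHG1#2. Both calls were lost without shSNHG1#1 replicate 3 or shSNHG1#2 replicate 2 or 3, and that of ATP5F1A also without replicate 1 of either hairpin (edgeR adjusted p from 0.051 to 0.119). The ATP5F1A call was lost as well by library totals alone (0.0519), by limma on FPKM (0.0773) and with the compared groups fitted alone (0.0642).

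Most members are short transcripts, so they were also set beside other features of like length. Of the members tested, 50 had an implied length under 1000 bases, with medians of 0.133 and 0.041 for shSNHG1#1 and shSNHG1#2. The 1245 features of that length had medians of 0.024 and -0.039. The 27 longer members had medians of 0.219 and 0.161, against 0.023 and 0.014 for longer features.

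The other genes of the pathway were read from lists by role. All 4 subunits of complex II, which takes electrons from succinate, were higher with shSNHG1#1 and 3 with shSNHG1#2. These shares of complex II, 100% and 75%, stand beside 24.5% and 23.3% called higher over all features. SDHB, its iron-sulfur subunit, was at 37.4 ± 2.21, 49.9 ± 2.13 and 47.3 ± 2.05 FPKM, with log2 fold changes of 0.37 and 0.27 (edgeR adjusted p = 0.00018 and 0.00168). SDHA, the flavoprotein, rose by 0.24 and 0.17. SDHC, a membrane anchor, passed with shSNHG1#1 (0.20). SDHD, the other anchor, stood at 0.19 and 0.15. Its call with shSNHG1#1 was lost without shNC replicate 2 or shSNHG1#1 replicate 1 (edgeR adjusted p = 0.0807 and 0.0796), and that with shSNHG1#2 without any of the shNC libraries or shSNHG1#2 replicate 2 or 3 (0.071 to 0.174).

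Of the electron carriers and inhibitors, 6 of 17 were higher and 2 lower with shSNHG1#1, and 7 and 2 with shSNHG1#2. Those called in either direction made up 47.1% and 52.9%, beside 48.1% and 46.2% over all features. CYCS, cytochrome c itself, was at 24.6 ± 1.14, 35.5 ± 1.7 and 34.6 ± 1.38 FPKM and rose by 0.48 and 0.43 (edgeR adjusted p = 6.6e-06 and 2.1e-05). ATP5IF1, the inhibitor that stops ATP synthase from running backwards, was at 26.2 ± 2.34, 45.2 ± 0.588 and 40.7 ± 5.11 FPKM and rose by 0.63 and 0.51 (edgeR adjusted p = 9e-05 and 0.00048). ETFB, of the flavoprotein that feeds electrons from fatty acid oxidation, rose by 0.48 and 0.37. The 2 lower genes were ETFDH (-0.34 and -0.37), which hands those electrons to ubiquinone, and COQ7 (-0.31 and -0.29), an enzyme of ubiquinone synthesis. Both were lost by totals without the most abundant feature (edgeR adjusted p from 0.0754 to 0.139), and ETFDH also by limma on FPKM (0.501 and 0.0784).

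Assembly factors were called in both directions, and their shares are read beside the 24.5% higher and 23.5% lower over all features with shSNHG1#1, and 23.3% and 22.8% with shSNHG1#2. For complex I, 8 of the 16 listed (50%) were higher and 3 (18.8%) lower with shSNHG1#1, and 8 (50%) and 2 (12.5%) with shSNHG1#2. DMAC2, a further factor of that complex, was not on this list and is given below. TIMMDC1, a membrane-arm factor, rose by 0.46 and 0.58 and FOXRED1 by 0.63 and 0.56. COA1 went opposite ways by count (-0.20 and -0.21) and by limma on FPKM (0.33 and 0.30), so no direction is given for it. For complex III, 3 of 6 (50%) were higher with each hairpin, namely UQCC2 (0.37 and 0.29), UQCC3 (0.55 and 0.48) and LYRM7 (0.45 and 0.48), the last of which handles the Rieske protein. UQCC1 passed as lower with shSNHG1#2 (-0.12), but its sign turned by totals without the most abundant feature (0.02) and by limma on FPKM (0.03), and the call was lost without shNC replicate 1 or 3 or shSNHG1#2 replicate 2 or 3 (edgeR adjusted p from 0.052 to 0.111). For complex IV, 7 of 24 (29.2%) were higher and 3 (12.5%) lower with shSNHG1#1, and 7 (29.2%) and 4 (16.7%) with shSNHG1#2. COX16 was at 1.29 ± 0.203, 3.54 ± 0.326 and 2.9 ± 0.74 FPKM and rose by 1.44 and 1.13 (SE 0.20, edgeR adjusted p = 0.00015 and 0.00098). CMC2 rose by 0.84 and 0.71, COX18 by 0.84 and 0.73 and SCO1, a copper chaperone, by 0.50 and 0.38. On the list made for complex V, 1 of 6 was higher and 1 lower with each hairpin (16.7% each way). TMEM70 rose by 0.42 and 0.47. The lower gene, DMAC2, is an assembly factor of complex I that the list had placed under complex V. DMAC2 passed at -0.12 with both hairpins, turning to 0.02 with totals that leave out the most abundant feature.

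Among 15 regulators of mitochondrial biogenesis, 5 were higher and 3 lower with shSNHG1#1, and 4 and 3 with shSNHG1#2. These shares, 33.3% and 20% with shSNHG1#1 and 26.7% and 20% with shSNHG1#2, stand beside 24.5% and 23.5%, and 23.3% and 22.8%, over all features. PPARGC1B, a coactivator of mitochondrial genes, rose by 1.15 and 1.02 (edgeR adjusted p = 3.6e-06 and 1.1e-05) from a low level of 0.503 ± 0.0289 FPKM in shNC to 0.9 ± 0.106 and 0.887 ± 0.0929. TWNK, the mitochondrial DNA helicase, rose by 0.31 and 0.29. TFAM, which packs and transcribes mitochondrial DNA, stood at 0.17 and 0.22, the former lost without shNC replicate 2 or 3 or shSNHG1#1 replicate 1 or 2 (edgeR adjusted p from 0.0675 to 0.117). PPRC1, another coactivator, passed at -0.20 and -0.11. With shSNHG1#2 its value was 0.03 by totals without the most abundant feature and 0.01 by limma on FPKM. The other regulators called lower with both hairpins were NRF1 and YY1, whose motifs were searched in the promoter windows. By library totals alone the calls of NRF1 (edgeR adjusted p = 0.108 and 0.203) and YY1 (0.164 and 0.485) were lost. Each was also lost without at least 1 library (edgeR adjusted p from 0.0503 to 0.149).

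**Figure D5:**
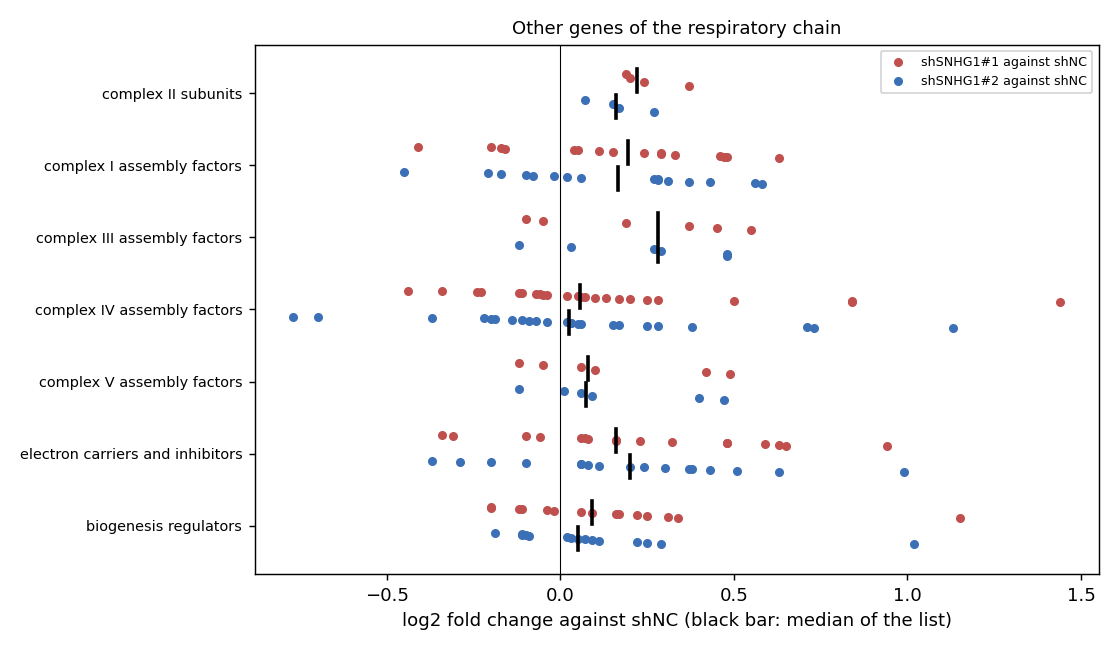
Log2 fold change against shNC (horizontal axis) of the genes of each related list (vertical axis), in red for shSNHG1#1 and blue for shSNHG1#2, with black bars at the list medians. Complex II lies above 0 throughout, and COX16, at 1.44 with shSNHG1#1, is the farthest point to the right.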

How the data were processed

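Total RNA from 9 libraries of Weri-RB1/CRP was sequenced with a BGI500 protocol, per the labels. Per the file headers, the authors deposited estimated counts and FPKM by library for 27407 features. Per the submitters' processing notes, the tools were RSEM 1.2.12, HISAT2 2.0.4, DESeq2 1.4.5 and Bowtie2 2.2.5, with no role given. The build, and whether counting used strand, is not given in the sources read, and values of overlapping genes and near-identical copies are uncertain.

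The deposited estimated counts were rounded and tested with edgeR 4.0.16 (R 4.3.3): TMM scaling, filterByExpr, glmQLFit and glmQLFTest with 1 mean per group over all 9 libraries, and Benjamini-Hochberg adjustment over 18767 features. SE is the log2 fold change divided by the root of F. Folds are from counts, levels are deposited FPKM. The alternatives were edgeR's RLE scaling, library totals with and without the most abundant feature (the latter chosen after seeing the data), no filter, DESeq2 1.42.0, limma 3.58.1 on log2(FPKM + 1), a replicate block, the groups compared alone, and each library left out. The procedure was tested on simulated data. Library totals differed little, so depth limits mainly genes of few reads.

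Members, lists and tests were chosen with earlier results of these data known. Genes are named by rule: the 2 highest FPKM in each complex, the 3 highest and 3 lowest called log2 fold changes per complex and hairpin at a log2 CPM of at least 2, the 5 smallest p between hairpins, isoform pairs, and the 3 smallest p of each list and hairpin. Others named were chosen after their values were seen. RefSeq promoter windows of GRCh38.p14 matched 65 of the 81 members by Entrez identifier, with the first window taken for each gene.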

Additional observations from a re-analysis of the deposited data

Results flagged for a closer look

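ATP5F1E and ATP5F1A stood out because the direct test between the hairpins passed. ATP5F1E was -0.24 (log2) with shSNHG1#2 against shSNHG1#1 (edgeR adjusted p = 0.0161), and it was lower in 3 of 3 libraries. ATP5F1A was -0.17 (edgeR adjusted p = 0.0222), also lower in 3 of 3 libraries. Both calls ended without shSNHG1#1 replicate 3 or shSNHG1#2 replicate 2 or 3 (edgeR adjusted p from 0.0738 to 0.119), and that of ATP5F1A also without replicate 1 of either hairpin (0.0657 and 0.051).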

How the results depend on the processing

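Counts of members called higher and lower, and their medians, kept their direction in both comparisons with shNC under each alternative run for that comparison. Over all features tested, same-numbered libraries showed almost no shared deviation (correlations from -0.036 to 0.032). The members' summed FPKM was nevertheless highest in replicate 1 of every group, at 4623 in shNC, 5221 with shSNHG1#1 and 5084 with shSNHG1#2. Whether the members share a replicate effect was not tested. With a replicate block, 36 members were higher and 4 lower with shSNHG1#1, 25 and 8 with shSNHG1#2, and 0 and 2 between the hairpins. By totals without the most abundant feature, the medians were 0.309 and 0.225, with 55 and 43 higher and 1 and 3 lower. By library totals alone they were 0.213 and 0.144, with 4 lower with shSNHG1#2 and 1 between the hairpins. By limma on FPKM the shSNHG1#2 median was 0.144, with 3 lower, and 1 was lower between the hairpins. DESeq2 gave 11 lower with shSNHG1#2 and 7 between the hairpins. With each library left out, members higher with shSNHG1#2 ranged from 15 to 23, and members lower between the hairpins from 0 to 3. Features called between the hairpins numbered 586, 970 by DESeq2, 386 with those groups alone (where 1 member was lower), and 297 to 534 with each library left out. By totals without the most abundant feature, the signs of some called genes turned. Among those named by rule these were COX7C (0.01 and 0.02), DMAC2 (0.02 and 0.02), PPRC1 (0.03 with shSNHG1#2) and UQCRQ (0.01 with shSNHG1#2). By limma on FPKM, the genes named by rule that turned were COA1 (0.33 and 0.30), PPRC1 (0.01) and UQCRQ (0.29). UQCC1, not named by rule, turned with shSNHG1#2 in both of these settings, as given above. The cause was not tested, for UQCRQ as for the others.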
